A study of Rattus norvegicus with 6 samples.

Results

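Plasminogen activators and serpins were described here in cultured rat nucleus pulposus cells (NPCs), the cells of the gel-like core of the intervertebral disc. The 5 genes were taken by symbol, with earlier results of these data known: Plau and Plat, which encode the urokinase-type and tissue-type plasminogen activators, Plaur, which encodes the urokinase receptor, and the serpins Serpine2 and Serpinf1. All 5 were among the 20264 rows of the combined count table and among the 11426 genes that passed the filter on low counts. The samples were 6 RNA-seq libraries of primary NPCs from the tail discs of wild type male Sprague-Dawley rats. In the TBHP group (n = 3), cells received tert-butyl hydroperoxide, an oxidant used to induce senescence, and in the TBHP+FGF21 group (n = 3) they received TBHP together with recombinant rat FGF21, a fibroblast growth factor. Both groups carried TBHP, so no untreated cells were compared. Dose, exposure time and whether each library came from a separate animal were not given in the sources used here, so p-values measure the spread between these libraries. The treatment labels name FGF21 for replicate 1 of the TBHP+FGF21 group but FGF22 and FGF23 for replicates 2 and 3. The libraries were grouped by their titles and by the protocol, which gives FGF21 for the whole group.

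Plasminogen activators are secreted serine proteases that cut the zymogen plasminogen into plasmin, a broad protease that degrades fibrin and matrix glycoproteins and activates several matrix metalloproteinases. Urokinase works mainly at the cell surface, bound to its receptor, and tissue-type activator works mainly on fibrin. Serpins are suicide inhibitors of serine proteases, although some members, Serpinf1 among them, have lost that activity. In the disc, as in cartilage, this system is known as one of the routes to matrix breakdown.

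The libraries held between 18277724 and 22426186 counts. Replicate 2 of the TBHP+FGF21 group stood apart from its own group: across genes its mean Spearman's rho was 0.990 with replicates 1 and 3 and 0.996 with the TBHP libraries. Results are therefore given with and without it, a choice made from these same data, so p-values without it are descriptions. Replicate 3 of the TBHP group was also slightly closer to the other group (0.994 against 0.993). Of the notochordal markers that define embryonic-type NPCs, Tbxt, Shh and Noto were at 0 in all libraries. Of the 12 with a row, 3 exceeded 1 CPM (a library's counts rescaled to a common total) throughout. These were Ncam1 (183 to 260 CPM), Cdh2 (35.6 to 46.1 CPM) and Krt8 (2.31 to 4.27 CPM). Acan, the disc proteoglycan, was at 2506 to 4355 CPM, while Col2a1 stayed under 1 CPM. The macrophage markers Ptprc and Adgre1 and the endothelial markers Cdh5 and Kdr were at 0 throughout. Of the 13 macrophage markers 7 had counts, summing to 32.6 to 38.8 CPM in the TBHP group and 27.2 to 34.0 CPM in the TBHP+FGF21 group, and 5 of the 9 endothelial markers had counts, summing to 38.8 to 48.9 and 43.4 to 47.7 CPM.

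Sequence before the annotated start was taken from RefSeq (GRCr8) for the genes whose levels moved together or in opposite directions, and 4 of the 5 genes had an entry; Plat had none. The 250 bases of Plau and Serpine2, which had the same pattern across libraries, and of Plaur, which had the opposite one, are shown in the gene's own direction, with capitals marking a match to one of the motifs searched on both strands.

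Plau, chr15:3511988-3512237, minus strand: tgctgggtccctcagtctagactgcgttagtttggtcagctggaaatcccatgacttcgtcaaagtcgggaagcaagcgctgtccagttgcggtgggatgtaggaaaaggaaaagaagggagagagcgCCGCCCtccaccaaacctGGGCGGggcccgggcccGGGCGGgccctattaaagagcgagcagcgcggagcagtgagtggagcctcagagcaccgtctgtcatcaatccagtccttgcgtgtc
Serpine2, chr9:88637203-88637452, minus strand: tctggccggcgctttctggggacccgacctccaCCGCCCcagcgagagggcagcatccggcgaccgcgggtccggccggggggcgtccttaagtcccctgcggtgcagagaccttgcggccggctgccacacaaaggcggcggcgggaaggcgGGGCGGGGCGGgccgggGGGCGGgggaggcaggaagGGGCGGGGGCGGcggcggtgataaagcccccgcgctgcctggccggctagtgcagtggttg
Plaur, chr1:89181113-89181362, plus strand: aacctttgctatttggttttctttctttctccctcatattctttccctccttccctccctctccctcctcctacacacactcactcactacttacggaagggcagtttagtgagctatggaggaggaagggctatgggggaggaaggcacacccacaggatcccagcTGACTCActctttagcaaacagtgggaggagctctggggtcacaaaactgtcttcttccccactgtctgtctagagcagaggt

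The GC box, GGGCGG, matched 3 times in the Plau window and 6 times in that of Serpine2, where a pair of matches share a base; 30.5% of 33469 RefSeq promoter windows of this length hold it. Plaur had a single match to the AP-1 motif, TGANTCA, which begins 83 bases before the start and is held by 6.34% of windows. The cAMP response element (TGACGTCA), the CCAAT box, the TATA box (TATAAA) and the E-box (CACGTG) had no match in these windows, nor had any of the 6 motifs in that of Serpinf1, which says only that these letters are absent there. The GC content was 60.0% for Plau, 76.8% for Serpine2, 51.2% for Plaur and 53.2% for Serpinf1, against a median of 51.2% over all windows. Motif matches are descriptions of the sequence, and binding was not measured.

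Both activators were higher in TBHP+FGF21 replicates 1 and 3 than in every TBHP library, while replicate 2 was at or close to the TBHP level. Plau, on chromosome 15, was at 108, 119 and 129.9 CPM (after scaling by edgeR's TMM factors) in TBHP replicates 1, 2 and 3, and at 184, 122 and 249 CPM in the TBHP+FGF21 replicates. Replicates 1 and 3 were thus high, and replicate 2 lay inside the TBHP range, so the groups overlapped. The means were 119 ± 10.9 and 184.9 ± 63.3 CPM (SD, n = 3), a log2 fold change of 0.64 (standard error 0.20), or 1.55-fold. The unadjusted p was 0.00682 and the adjusted p was 0.553 by edgeR's quasi-likelihood test, so Plau was not called. Within the TBHP+FGF21 group the highest library exceeded the lowest by 2.04-fold, against 1.20-fold in the TBHP group.

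Plat, on chromosome 16, was at 40.05, 42.0 and 41.8 CPM in the TBHP replicates and at 57.5, 43.0 and 62.5 CPM in the TBHP+FGF21 replicates. It was the only one of the 5 whose groups did not overlap, with replicate 2 just above the TBHP range; groups did not overlap for 9.90% of all genes tested. The means of 41.3 ± 1.06 and 54.3 ± 10.1 CPM (SD, n = 3) differed by a log2 fold change of 0.40 (standard error 0.13), or 1.32-fold, with an unadjusted p of 0.00896 and an adjusted p of 0.553 by edgeR. Its exact two-sided permutation p was 0.1, the smallest that 3 libraries against 3 allow.

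Plaur ran the other way. On chromosome 1, this GPI-anchored receptor for urokinase was at 83.1, 78.2 and 78.4 CPM in the TBHP replicates and at 55.2, 82.0 and 65.2 CPM in the TBHP+FGF21 replicates. Replicates 1 and 3 lay below every TBHP library and replicate 2 inside their range. The means were 79.9 ± 2.75 and 67.5 ± 13.5 CPM (SD, n = 3). They differed by -0.24 on the log2 scale, with a standard error of 0.13, and edgeR gave an adjusted p of 0.559. Here replicate 1 had the lowest level, whereas for both activators replicate 3 had the highest.

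**Figure D1:**
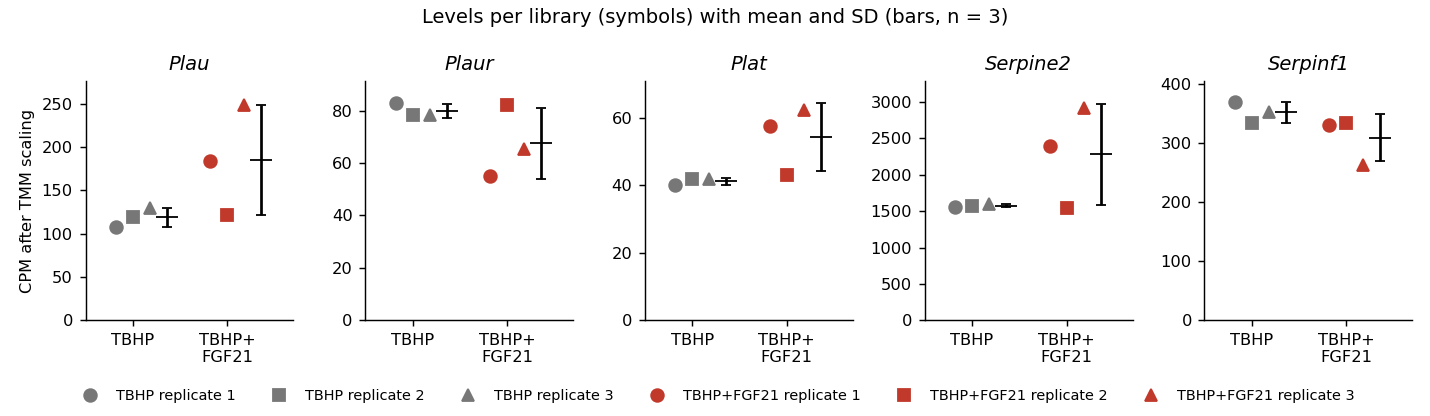
Levels of the 5 genes in each library, in CPM after TMM scaling, with TBHP in grey and TBHP+FGF21 in red; symbols give the replicate number and bars the mean and SD (n = 3). Replicates 1 and 3 of the TBHP+FGF21 group depart from the TBHP libraries, upwards for Plau, Plat and Serpine2 and downwards for Plaur, while replicate 2 sits with the TBHP group.

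Serpine2 encodes protease nexin-1, a secreted serpin that inhibits thrombin, urokinase, tissue-type activator and plasmin. It had the largest counts of the 5, between 27881 and 66746 per library, so that its counting error was at most 0.599% of the count. On chromosome 9, it was at 1557, 1571 and 1599 CPM in the TBHP replicates, which differed by 1.03-fold at most, and at 2389, 1537 and 2910 CPM in the TBHP+FGF21 replicates. Replicates 1 and 3 lay far above the TBHP libraries, and replicate 2 was just below all of them. The means were 1576 ± 21.2 and 2279 ± 693 CPM (SD, n = 3). They differed by 0.53 on the log2 scale (standard error 0.18) or 1.45-fold, with an unadjusted p of 0.0113 and an adjusted p of 0.553 by edgeR.

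Serpinf1 encodes pigment epithelium-derived factor, a secreted serpin known for restraining blood vessel growth rather than for inhibiting proteases. On chromosome 10, it was at 369, 333 and 352 CPM in the TBHP replicates and at 330.7, 333 and 262 CPM in the TBHP+FGF21 replicates. Replicates 1 and 3 lay below every TBHP library, replicate 1 by a small margin, and replicate 2 was level with the lowest of them. The means of 351 ± 17.8 and 309 ± 40.2 CPM (SD, n = 3) gave a log2 fold change of -0.19, with a standard error of 0.11 and an adjusted p of 0.579 by edgeR.

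Of the 5 genes, none had an adjusted p under 0.05, against 0.00875% of all genes tested (1 of 11426), and 3 (Plau, Plat and Serpine2, all higher) had an unadjusted p under 0.05, against 8.92% (4.63% higher and 4.29% lower). DESeq2's Wald test and limma-voom also called none of the 5 after adjustment and had the same number at an unadjusted p under 0.05. Counting error was at most 3.73% for any of the 5 in any library, whereas edgeR's estimate of the variation between replicates was 10.4% to 17.1%. Because these are bulk libraries, more RNA per cell and a larger share of cells expressing a gene cannot be told apart.

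Leaving out replicate 2 of the TBHP+FGF21 group brought 4 of the 5 past the threshold, against 7.50% of all genes in that fit (3.78% higher and 3.72% lower). That library was picked because it lay near the TBHP group in these same data. Its removal therefore widens differences and narrows spreads, and the adjusted p-values of that fit are descriptions only. The log2 fold change was then 0.87 for Plau (adjusted p = 0.000383 by edgeR), 0.76 for Serpine2 (adjusted p = 0.000595), 0.55 for Plat (adjusted p = 0.00416) and -0.40 for Plaur (adjusted p = 0.0303). Serpinf1, at -0.24, was not called (adjusted p = 0.214 by edgeR). Without that library the groups overlapped for none of the 5, against 39.8% of all genes without overlap. Without replicate 3 of the same group the values were 0.37 for Plau, 0.32 for Serpine2, 0.29 for Plat and -0.07 for Serpinf1 (adjusted p = 0.973 each by edgeR). Without replicate 1 they were 0.65 for Plau, 0.51 for Serpine2 and 0.37 for Plat (adjusted p = 0.916 each by edgeR), and -0.11 for Plaur (adjusted p = 0.93).

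**Figure D2:**
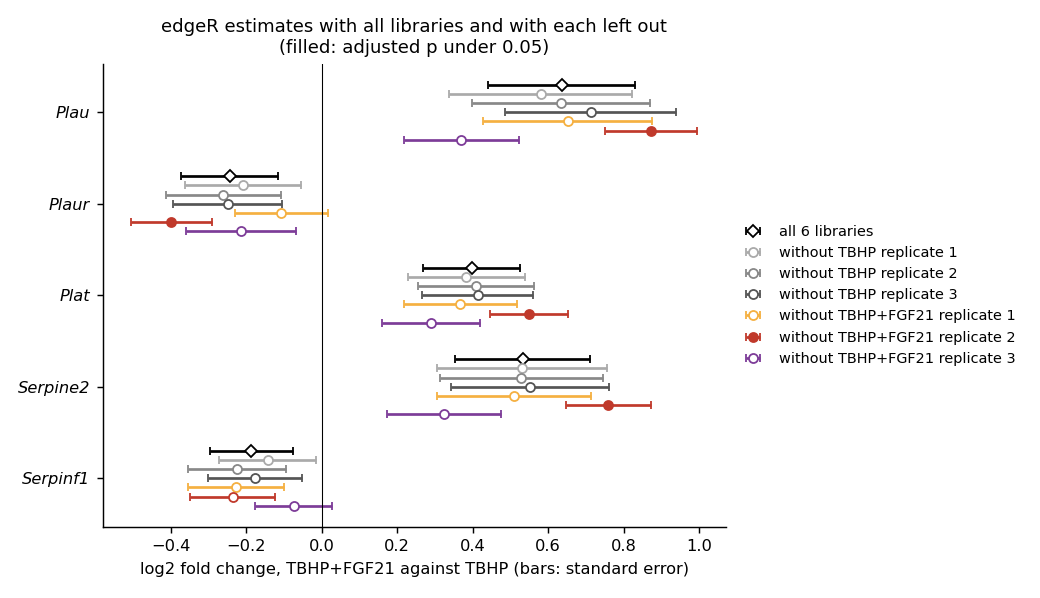
Log2 fold change of TBHP+FGF21 against TBHP for each gene, with its standard error, from all 6 libraries (diamonds) and with each library left out in turn (circles); filled symbols have an adjusted p under 0.05. Signs are the same in all fits, and the filled symbols are those without TBHP+FGF21 replicate 2, for Plau, Plaur, Plat and Serpine2.

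The activators and Serpine2, an inhibitor of both among others, were then set against each other within each library. Neither activator's ratio to Serpine2 separated the groups. The ratio of Plau to Serpine2 counts was 0.0695, 0.0756 and 0.0812 in the TBHP replicates and 0.0770, 0.0794 and 0.0855 in the TBHP+FGF21 replicates. This is a ratio of reads and not of molecules, as no transcript lengths were used, but it can be compared between libraries and does not depend on scaling. The ranges overlapped, and the groups differed by 0.10 on the log2 scale (two-sided exact permutation p = 0.4). The Plat to Serpine2 ratio was between 0.0257 and 0.0267 in the TBHP group and between 0.0215 and 0.0280 in the TBHP+FGF21 group (log2 difference -0.10, exact permutation p = 0.5). By contrast, Plau to Plaur counts stood at 1.30, 1.52 and 1.66 in the TBHP replicates and at 3.33, 1.49 and 3.81 in the TBHP+FGF21 replicates, so that replicates 1 and 3 had more reads of ligand per read of receptor than every TBHP library and replicate 2 did not. That log2 difference was 0.84 (exact permutation p = 0.3), and the one between Plau and Plat was 0.20 (exact permutation p = 0.2). All 4 ratios had an adjusted p of 0.5 by Benjamini-Hochberg, and 0.1 was the smallest unadjusted exact permutation p the design allows.

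**Figure D3:**
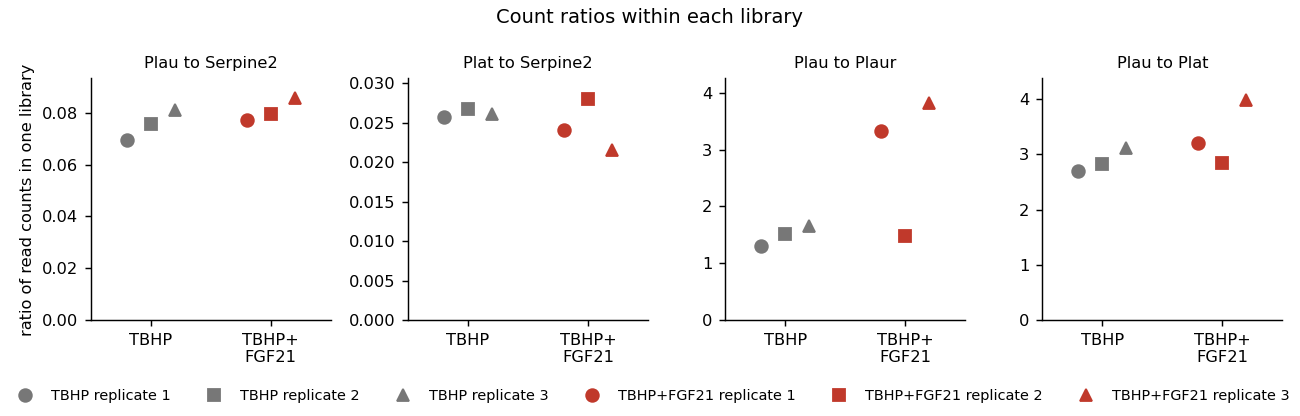
Ratio of read counts of gene pairs within each library, with TBHP in grey and TBHP+FGF21 in red; symbols give the replicate number. Plau to Serpine2 and Plat to Serpine2 overlap between the groups, while Plau to Plaur reaches 3.33 and 3.81 in replicates 1 and 3 of the TBHP+FGF21 group.

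The genes most alike in pattern were taken as the 3 with the highest Pearson correlation of log2 CPM over the 6 libraries. This is a description, since points from the same library share its treatment and depth and since replicates 1 and 3 of the TBHP+FGF21 group stand apart from the rest. For Serpine2 they were Ptgs1, which encodes a cyclooxygenase (r = 0.9998), Tgfbr3, a TGF-beta co-receptor (r = 0.998), and Vxn (r = 0.996). Over the other 4 libraries r was -0.46 for Vxn and 0.945 for Ptgs1. Serpine2 spanned only 1537 to 1599 CPM there, so these values cannot tell which gene follows it. For Plau they were Xdh, which encodes xanthine dehydrogenase (r = 0.999), Mob3b and Nrk (both 0.997). Plat was closest to Vegfd, a lymphangiogenic growth factor (r = 0.998), Matn2, a matrix adaptor protein (r = 0.997), and Aldh1a3, a retinoic acid-forming enzyme (r = 0.994). Vegfd and Aldh1a3 had log2 fold changes of 1.91 and 1.76, larger than that of Plat, but neither was called (adjusted p = 0.553 each by edgeR). Both were at low levels. Vegfd was at 1.01 to 1.36 CPM in the TBHP replicates and at 4.97, 1.29 and 7.45 CPM in the TBHP+FGF21 replicates. For Aldh1a3 the levels were 1.01 to 1.45 CPM and then 4.26, 1.58 and 6.98 CPM. Plaur was closest to Thumpd2 (r = 0.996), Acot7 (r = 0.994) and Sema6b (r = 0.989), and Serpinf1 to Cars1 (r = 0.993), Alg12 (r = 0.987) and Bmp8a (r = 0.985).

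Other serpins were described from a list. Of 41 listed, 36 were in the table and 11 had enough counts to be tested. In the TBHP+FGF21 group 3 were higher and 8 lower, several of them by little, where 51.1% of all genes tested were lower. Their median log2 fold change was -0.07, against -0.0052 over all genes tested. None was called, and 1 higher and 1 lower gene had an unadjusted p under 0.05 (4.63% and 4.29% of all genes tested). Serpinh1, a collagen chaperone that inhibits no protease, was at -0.03.

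Serpinb6a, an intracellular serpin, was at 194 ± 12.7 and 155 ± 28.4 CPM (SD, n = 3), with a log2 fold change of -0.32 (unadjusted p = 0.0224 by edgeR). Serping1, which encodes the C1 inhibitor, was at the low level of 1.79 ± 0.196 and 2.70 ± 0.904 CPM, with a log2 fold change of 0.59 (unadjusted p = 0.0478 by edgeR). Without replicate 2 the genes called among the serpins were Serpinb6a (-0.48, adjusted p = 0.00968 by edgeR) and Serpinb9 (-0.79, adjusted p = 0.00117), an inhibitor of granzyme B that was named after its values were seen. Both belong to families with close copies in rodents, between which reads may be split. In the fit without replicate 2, 7.50% of all genes were called (3.72% lower), and its adjusted p-values are descriptions only.

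Plasminogen itself was almost undetected: Plg had between 0 and 5 counts per library. Of 36 listed activators, receptors and binding partners of the system, 22 could be tested, of which 11 were higher and 11 lower (median log2 fold change -0.00054) and none was called. At an unadjusted p under 0.05 by edgeR there were 2 higher and 1 lower, against 4.63% and 4.29% of all genes tested. Igf2r, a receptor that binds the urokinase receptor and plasminogen, had a log2 fold change of 0.25 (unadjusted p = 0.0454), the integrin subunit Itgb5 0.26 (unadjusted p = 0.0394), and S100a10, which with annexin A2 binds plasminogen at the cell surface, -0.35 (unadjusted p = 0.0370), all by edgeR. The levels of S100a10 were 459, 525 and 363 CPM in the TBHP replicates and 312, 424 and 323 CPM in the TBHP+FGF21 replicates. Actb and Eno1, the most abundant of the list and also described as plasminogen binding proteins, were at -0.10 and -0.08.

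Plasmin substrates had 6 higher genes and 1 lower gene at an unadjusted p under 0.05 among 26 tested of 30, none of them called, where 4.63% of all genes tested were higher and 4.29% lower at that p; 15 were higher and 11 lower, with a median log2 fold change of 0.07. Among these were 4 metalloproteinases, each higher in replicates 1 and 3 of the TBHP+FGF21 group than in every TBHP library, as Plau was. Mmp3, stromelysin-1, was at 17.8, 22.2 and 21.5 CPM in the TBHP replicates and at 40.4, 20.9 and 61.7 CPM in the TBHP+FGF21 replicates, again high in replicates 1 and 3 and within the TBHP range in replicate 2. Log2 fold changes were 0.92 for Mmp10, 0.56 for Mmp13 and 0.40 for Mmp2. Acan (0.40) and the laminin chain Lamc1 (0.32) were the other higher genes, and Igfbp3, an IGF carrier, was the lower one (-0.53). The abundant matrix genes Fn1 and Spp1 were at 0.02 and 0.15.

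Of 31 listed genes of coagulation and other surface protease control, 14 were tested, 7 higher and 7 lower, with a median of 0.03 and none called. There were 2 higher and 1 lower at an unadjusted p under 0.05 by edgeR, against 4.63% and 4.29% of all genes tested. Reck, a membrane-anchored metalloproteinase inhibitor, had a log2 fold change of 0.32 (unadjusted p = 0.0211 by edgeR), Gas6, a vitamin K-dependent growth factor, 0.35 (unadjusted p = 0.0379), and F3, tissue factor, -0.33 (unadjusted p = 0.0452). Thbs1 and Thbs2, the thrombospondins, were at -0.02 and -0.0036.

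AP-1 and ETS factors and ERK signalling are known to induce the urokinase gene, and a list of their genes was described. The list also holds feedback genes of ERK, such as Spry2 and Dusp5, so its counts are not counts of inducers. All 18 of the listed genes in the table were tested, 13 higher and 5 lower, with a median of 0.09. At an unadjusted p under 0.05 by edgeR 5 were higher and 1 lower, against 4.63% and 4.29% of all genes tested, and none was called. Fos was at 12.9, 13.1 and 15.3 CPM in the TBHP replicates and at 25.2, 22.8 and 19.0 CPM in the TBHP+FGF21 replicates, a log2 fold change of 0.70 (unadjusted p = 0.000236 by edgeR, adjusted p = 0.553). Fosb, at 7.08 to 7.49 and 9.55 to 10.1 CPM, was at 0.45 (unadjusted p = 0.00563), and Egr1 was at 0.41 (unadjusted p = 0.00345), both by edgeR. For Fos, Fosb, Egr1 and Dusp5 all 3 TBHP+FGF21 libraries, replicate 2 included, lay above every TBHP library, as they did for Plat but not for Plau or Serpine2; 9.90% of all genes tested had groups that did not overlap. Spry2 (0.31), an ERK feedback inhibitor, was high in replicates 1 and 3 only, Dusp5 was at 0.36, Jun at 0.23 and Ier3 at -0.46. Of the 21 listed genes at an unadjusted p under 0.05, 19 had replicate 2 nearer to the TBHP mean than replicates 1 and 3 were, the exceptions being Fos and Fosb, and so had 85.9% of all 1019 genes at that p.

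**Figure D4:**
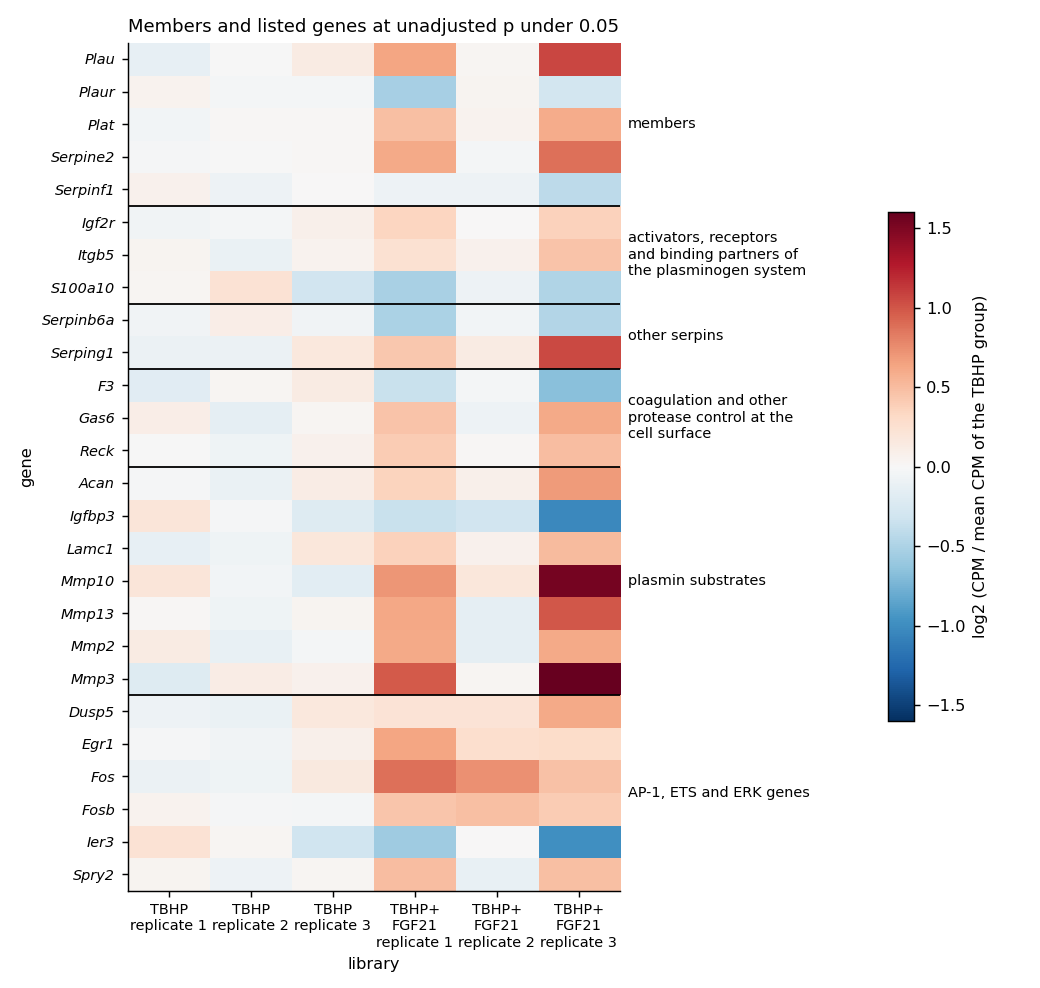
Log2 of the level in each library over the mean of the TBHP group, for the 5 genes and the 21 listed genes at an unadjusted p under 0.05, grouped by list; red is higher and blue lower. Columns 4 and 6 (TBHP+FGF21 replicates 1 and 3) carry most of the colour, while column 5 (replicate 2) is pale except for rows such as Fos (0.73) and Fosb (0.48).

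Without replicate 2, listed genes at an unadjusted p under 0.05 by edgeR were 6 higher and 2 lower of 23 tested activators, receptors and binding partners. They were 1 and 3 of 11 other serpins and 3 and 2 of 14 genes of coagulation and surface protease control. For plasmin substrates they were 8 and 4 of 26, and for AP-1, ETS and ERK genes 8 and 1 of 18. Of all 11559 genes in that fit, 1342 were higher and 1390 lower at that p (23.6% together). Some markers of other cell types moved with the same libraries. The summed level of 8 smooth muscle or pericyte markers was 3542 to 3938 CPM in the TBHP group and 2707, 3790 and 2233 CPM in the TBHP+FGF21 replicates. Of the 8, 7 exceeded 1 CPM in every library, while Rgs5 was at 0 to 0.237 CPM. Most of the sum came from Acta2 (1322 to 1439 and then 910, 1378 and 687 CPM) and Tagln (1668 to 1946 and then 1183, 1879 and 922 CPM). Cnn1 was also below the TBHP range in replicates 1 and 3, while Des (140 to 156 and then 174, 137 and 223 CPM), Pdgfrb (305 to 344 and then 390.1, 328 and 354 CPM) and Notch3 were above it and Myh11 was within it. The 11 fibroblast or annulus markers, of which Tnmd was at 0, summed to 43650 to 48500 CPM and to 42390, 45790 and 33380 CPM. That sum was made up mostly of Col1a1 (38260 to 42460 and then 36810, 40110 and 27870 CPM). Scx and Postn were also below the TBHP range in replicates 1 and 3. Pdgfra (88.7 to 96.4 and then 128, 89.9 and 147 CPM) and Lum were above it there, and the rest showed neither pattern. Among the rest, Col1a2 stayed under 1 CPM in every library, far below Col1a1, and the reason was not tested. The 10 chondrocyte-like markers, Acan among them and Cnmd at 0, summed to 4241 to 4697 and to 4938, 4579 and 5371 CPM. Acan made up the higher sums, while Col11a1 was lower in the same libraries, at 1628 to 1679 and then 1333, 1610 and 905 CPM. The part of these shifts in the differences of the activators and serpins was not tested.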

How the data were processed

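RNA-seq libraries of 6 NPC cultures were analysed, 3 per group, as mapped by their deposited titles. The authors deposited a combined table of raw counts per gene symbol, handled as estimated counts because 22 rows hold values that are not whole (rounded up), and per-sample raw counts per Ensembl identifier in an unstranded column and a column per strand. STAR and featureCounts are named in the submitters' processing notes; versions, genome build and annotation are not given in the sources used here. Symbols were linked to identifiers by identical counts in all libraries (13204 rows, all 5 genes among them). The labels name a directional kit, yet the strand columns had a ratio of 0.978 to 0.986, so unstranded counts were used and antisense reads cannot be told apart. The strand columns summed to 100.4% to 101.8% of the unstranded count for Plat and to 100% for the others. Per library, 1.24% to 1.40% of reads were unmapped, 6.27% to 7.02% multimapping, 9.13% to 10.4% outside genes and 1.72% to 2.09% ambiguous, and these stayed out of library sizes.

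Counts were scaled by TMM and tested with edgeR 4.0.16 in R 4.3.3 (filterByExpr, minimum count 10 and minimum total 15; glmQLFit and glmQLFTest on group only; Benjamini-Hochberg over 11426 genes; call at an adjusted p under 0.05). Standard errors are the log2 fold change over the square root of F. Alternatives used the per-sample counts, DESeq2 1.42.0, limma 3.58.1, other filters, a replicate block, left-out libraries and the library labelled FGF21 alone. On simulated counts of 11426 genes, edgeR recovered 176 of 200 genes altered by 1 on the log2 scale, with 13 false calls. Those genes were altered alike in every TBHP+FGF21 library and by more than any of the 5 genes, so this recovery does not describe them. A count of 0 allows up to 3 counts, or 0.131 to 0.168 CPM, by counting error only. No pair of libraries agreed within sampling noise (chi-square per gene 6.94 to 58.4). Names follow one rule: the 5 genes, listed genes at an unadjusted p under 0.05 or with the 2 highest levels of their list, and the 3 genes most alike to each. One gene that the rule names is not reported here. The genes, lists and tests were chosen with earlier results of these data known.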

Additional observations from a re-analysis of the deposited data

How the results depend on the processing

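Signs of all 5 genes and all 4 count ratios were the same under every alternative run, and none of the 5 was called with the per-sample counts (unstranded or strand column 4), DESeq2's size factors, DESeq2's Wald test, limma-voom, limma on log2(scaled count + 1), no filter on low counts, a filter of 1 CPM in 3 libraries, or a replicate block. With the TBHP+FGF21 group reduced to the library labelled FGF21, which is assumed to vary like the TBHP libraries, 3 genes were called by edgeR: Plau at 0.63 (adjusted p = 0.00379), Plaur at -0.53 (adjusted p = 0.0386) and Serpine2 at 0.60 (adjusted p = 0.00229). That fit called 325 of all genes, and 1669 had an unadjusted p under 0.05. Those counts are out of 11752 genes tested. With that library alone in the TBHP+FGF21 group, the counts and adjusted p-values of the fit are descriptions only. The number of all genes called was 0 with the per-sample counts, unstranded or strand column 4, limma-voom and limma on log2(scaled count + 1). Under these settings 1082, 1049, 996 and 1191 genes in turn had an unadjusted p under 0.05. The number called was 4 with DESeq2's Wald test, 5 without a filter and 2 with the replicate block, against 1 as reported.

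With each library left out in turn, log2 fold changes ranged from 0.37 to 0.87 for Plau, -0.40 to -0.11 for Plaur, 0.29 to 0.55 for Plat, 0.32 to 0.76 for Serpine2 and -0.24 to -0.07 for Serpinf1, the number of the 5 called from 0 to 4, all genes called from 0 to 867 and all genes at an unadjusted p under 0.05 from 337 to 2732, with the highest counts without TBHP+FGF21 replicate 2 and the lowest of the last without TBHP replicate 2. The cause was not tested.

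Replicate numbers showed no clear pairing of the libraries, although 3 libraries per group are too few for this check to exclude it. Deviations of same-numbered libraries correlated at -0.122, 0.213 and 0.149, and numbers 1 and 3 correlated more highly with another number. The replicate block gave 1599 genes at an unadjusted p under 0.05, against 1019. Its log2 fold changes were 0.58 for Plau (adjusted p = 0.103 by edgeR), 0.38 for Plat, 0.48 for Serpine2, -0.26 for Plaur and -0.19 for Serpinf1. With the block 4 of the 5 had an unadjusted p under 0.05, against 3 as reported, the added gene being Plaur (unadjusted p = 0.0348 by edgeR). With pairing, the ratio differences were unchanged by construction, with an exact sign-flip p of 0.25 to 0.5, where 0.25 is the smallest possible. Counts of listed genes without replicate 2 were added after the data had been seen.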
